A study of Arabidopsis thaliana with 16 samples.

Results

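The 10 genes described here, IPS1, AT4, SPX1, SPX3, MGD2, MGD3, NPC4, SQD2, RNS1 and PHT1;4, are Arabidopsis genes of the phosphate starvation response, and they were taken by their gene identifiers out of the 32548 genes of the expression table. All 10 had a row in the table and all 10 passed the filter on low values. RNA came from whole seedlings of the Col-0 wild type and 7 mutants, 14 days old, grown on Murashige and Skoog plates under long days (16 h at 23 °C lit, then 8 h at 22 °C unlit). The mutants were hda6(-/-), hda19(-/-), the quadruple mutant sant1(-/-);sant2(-/-);sant3(-/-);sant4(-/-), called sant1234, the triple mutant mbd1(-/-);mbd2(-/-);mbd4(-/-), called mbd124, the double mutants esant1(-/-);esant2(-/-), called esant12, and arid1(-/-);arid4(-/-), called arid14, and rxt3(-/-). Each of the 8 genotypes has 2 libraries, 16 in all. The study asked, per its title, how protein complexes built around RPD3-type deacetylases, which take acetyl groups off histones, affect genes that respond to stress. HDA6 and HDA19 are such deacetylases, and the other mutants are named for proteins that the study places in their complexes. The labels name no phosphate treatment.

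When phosphate runs short, plants switch on a set of genes through the transcription factor PHR1 and its relatives, which bind a short DNA motif called P1BS. With ample phosphate, SPX proteins bind inositol pyrophosphates and hold PHR1 back. The targets of PHR1 include phosphate transporters, secreted phosphatases and nucleases that free phosphate from organic matter, and enzymes that replace membrane phospholipids with galactolipids and sulfolipids. A further layer is the microRNA miR399, which moves from shoot to root and directs cleavage of the transcript of PHO2, an enzyme that marks phosphate transporters for degradation. IPS1 and AT4 are RNAs that bind miR399 without being cleaved and so keep it from PHO2.

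The sites at which IPS1 and AT4 pair with miR399 are shown first, since the decoy function rests on them. Below, the seed of each mature miRNA (bases 2 to 8) is in capitals, and in each target the capitals are the 3 bases that lie opposite no base of the miRNA. The sequences are from the RefSeq TAIR10.1 assembly and annotation, 5′ to 3′.
ath-miR399b: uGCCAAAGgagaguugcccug
ath-miR399d: uGCCAAAGgagauuugccccg
ath-miR399f: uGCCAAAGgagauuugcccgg
IPS1 site: ttgggcaacttCTAtcctttggca
AT4 site: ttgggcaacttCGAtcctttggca
The seed GCCAAAG is the same in the miRNAs shown, which map to chr1:23345387-23345407 (minus strand), chr2:14442988-14443008 (minus strand) and chr2:14445084-14445104 (plus strand). The IPS1 site lies at chr3:3051224-3051247 and the AT4 site at chr5:895149-895172, both on the plus strand in the single exon of the gene, which the annotation gives as coding. Both sites pair with ath-miR399b with 3 mismatches once the 3 extra bases between miRNA bases 10 and 11, where a cut would fall, are set aside. With no gap allowed, the fewest mismatches were 8 at IPS1 and 9 at AT4. The gap differs between the genes, CTA in IPS1 and CGA in AT4.

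Libraries were close in depth, with 19259579 to 19522197 recovered reads, and values below are the authors' normalised read counts. Of the 8 genes named for the mutants that the annotation names, 6 fell in their own mutant. HDA19 was at 0.136% of its wild-type level in hda19, MBD4 at 6.23% and MBD2 at 37.6% in mbd124, HDC1 (the RXT3-like gene) at 29.6% in rxt3 and ARID1 at 49.7% in arid14, while MBD1 had 2 reads in mbd124 against 439 in wild type, a ratio of 0.00459 (95% exact interval 0.000554 to 0.0167, counting error only). HDA6 in hda6, at 113%, and ARID4 in arid14, at 92% of wild type, were not called, and a gene's count does not tell a mutated transcript from an intact one. In bulk seedlings, fewer cells of a type and less RNA per cell cannot be told apart. Of 19 root markers, 9 were higher and 3 lower in rxt3 (63.2%, beside 47.2% of all genes called there), 2 and 0 in sant1234 (10.5%, beside 19.8%), 0 and 1 in arid14 (5.26%, beside 32.3%), 1 and 3 in hda19 (21.1%, beside 30.2%), 1 and 1 in hda6, 2 and 1 in esant12 and none in mbd124. In rxt3, CASP1 and EXPA7 were among those higher, and SCR, SHR and HKT1 were those lower. PLT2 and WOX5 each averaged 5.48 in wild type, under the filter value of 10, and passed it through other libraries. The counts of root markers include both, and their calls are not read here. The summed level of the 19 root markers was 3474 to 3792 in rxt3, 3417 to 3767 in wild type, 3591 to 4053 in sant1234 and 3211 to 3663 in arid14. Of 15 leaf markers, 8 were higher and 1 lower in sant1234 (60%), 7 and 4 in arid14 (73.3%), and 4 and 4 in rxt3 (53.3%), beside 19.8%, 32.3% and 47.2% of all genes called. Their summed level was 1339000 to 1358000 in sant1234, 1262000 to 1278000 in arid14 and 1191000 to 1239000 in rxt3, against 1143000 to 1196000 in wild type. The leaf sum was 1350000 to 1446000 in mbd124 and 1331000 to 1410000 in esant12. In hda6 it was 1251000 to 1365000 and in hda19 1183000 to 1306000. No marker was at 0 reads in any library. The part of organ make-up in the results below was not tested.

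The genes rose most often in arid14 and rxt3 and fell most often in sant1234. A gene was called where its difference from wild type had an adjusted p under 0.05 in limma fitted to log2(value + 1) over all 20846 genes passing the filter, and values given after a ± are standard errors. In arid14, 7 of 10 genes were higher and none lower, beside 32.3% of all genes called in either direction and 15.1% called higher. In rxt3, 5 were higher and none lower, beside 47.2% of all genes called and 22.3% called higher. In sant1234, none was higher and 5 were lower, beside 19.8% of all genes called and 11.3% called lower. In hda19, 2 were higher and 2 lower, beside 30.2% of all genes called, 14% higher and 16.2% lower. In hda6, 1 was higher, beside 23.8% called and 11.2% called higher. None was called in mbd124, beside 10% of all genes, or in esant12, beside 25.9%. In these last mutants limma gave an unadjusted p under 0.05 to 0 of the 10 genes in mbd124 and to 2, MGD3 and NPC4, in esant12, and edgeR's quasi-likelihood test and DESeq2 on the recovered reads called 0 in either.

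The median log2 fold change of the 10 genes was 0.68 in arid14, 0.58 in rxt3, 0.27 in hda6, 0 in mbd124, -0.05 in hda19, -0.12 in esant12 and -0.45 in sant1234, where the medians of all genes tested lay between -0.02 and 0.01. In 9 of 10 genes the fold change was above 0 in arid14 and in rxt3, and in none in sant1234. These comparisons share the wild-type libraries. A joint test of the 7 mutants called all 10 genes, but 71.8% of all genes were called in it.

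**Figure D1:**
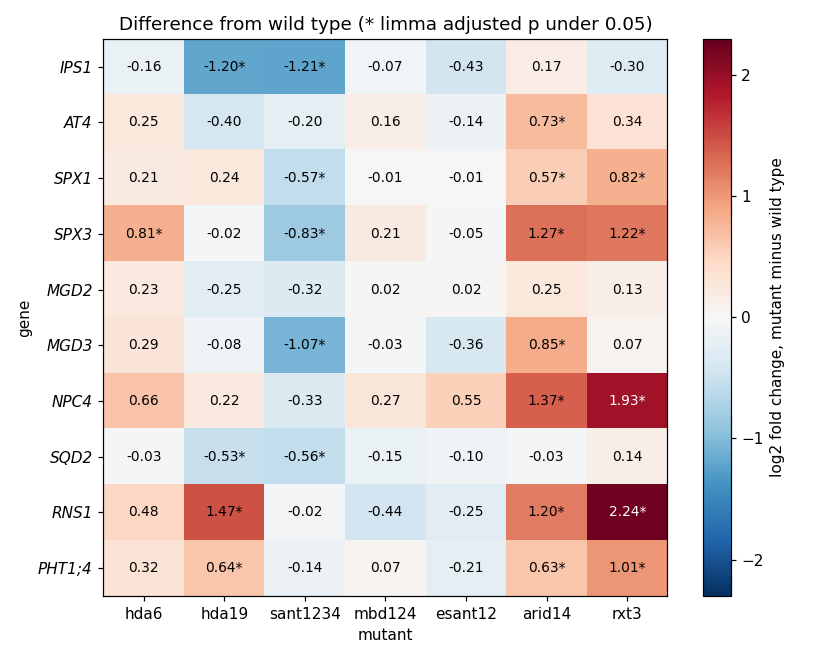
Log2 fold change of each gene (rows) in each mutant (columns) against wild type, from limma on log2(value + 1), with an asterisk where the adjusted p was under 0.05. The asterisks sit in 22 of 70 cells, 15 of them higher and 7 lower. The arid14 column holds 7 higher calls and the sant1234 column 5 lower ones.

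**Figure D2:**
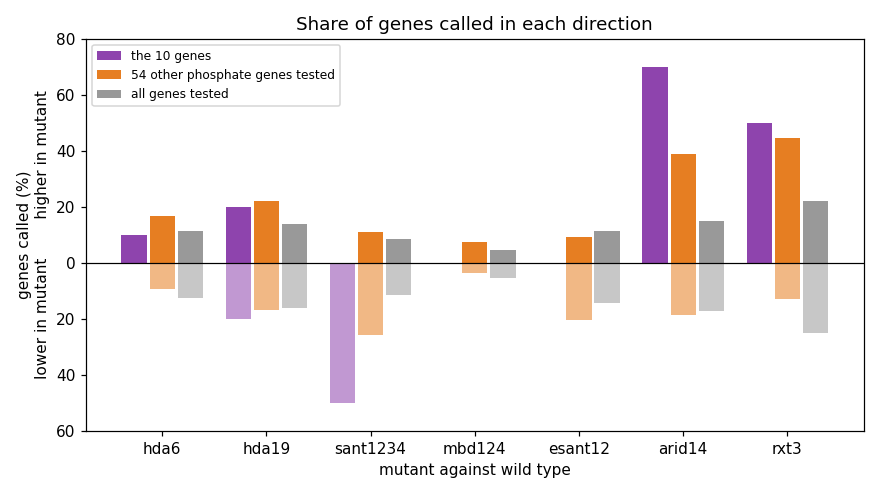
Share of genes called higher (bars above 0, full colour) or lower (bars below 0, pale) than wild type in each mutant, for the 10 genes, for 54 other genes of phosphate homeostasis that passed the filter and for all 20846 genes tested. In arid14, 7 of the 10 genes were higher, beside 15.1% of all genes, and in sant1234 5 were lower, beside 11.3%.

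Of the miR399 decoys, IPS1 fell in hda19 and sant1234, and AT4 rose in arid14. IPS1 (AT3G09922, chr3:3050989-3051530) stood at 417 and 362 normalised reads in the wild-type libraries, 156 and 180 in hda19 and 158 and 176 in sant1234. All 4 of these mutant libraries lay below every other library of the series, of which the lowest was 247 in esant12. IPS1 differed from wild type by a log2 fold change of -1.20 ± 0.20 in hda19 (limma adjusted p = 6e-04) and of -1.21 ± 0.20 in sant1234 (limma adjusted p = 0.001). The remaining IPS1 values were 291 and 414 in hda6, 436 and 313 in mbd124, 335 and 247 in esant12, 476 and 403 in arid14 and 270.0 and 369 in rxt3, and none of these mutants was called. In rxt3, where SPX1, SPX3 and NPC4 rose, the IPS1 difference was -0.30 with a 95% interval of -0.73 to 0.14.

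AT4 (AT5G03545, chr5:894582-895517) was at 1081 and 1213 in wild type and at 1925 and 1866 in arid14, where both libraries lay above all others. The log2 fold change was 0.73 ± 0.14 (limma adjusted p = 0.0015). In hda19 AT4 was at 765 and 986, below both wild-type libraries, but the difference missed the threshold (-0.40 ± 0.14, limma adjusted p = 0.051). It passed without hda19 replicate 2 (0.023), with a replicate block (0.025), with DESeq2 (0.032) and with a filter at 50 (0.047). AT4 was at 845 and 1181 in sant1234, the mutant where IPS1 was called lower, at 1300 and 1618 in rxt3, at 1329 and 1390 in hda6, at 1364 and 1192 in mbd124 and at 1025 and 1058 in esant12, all without a call. In rxt3 AT4 was called higher with edgeR (adjusted p = 0.035), with DESeq2 (0.027), with a replicate block in limma (0.034) and without rxt3 replicate 1 (0.031). Per kilobase of transcript, the wild-type level was 718 normalised reads for IPS1 and 1225 for AT4.

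**Figure D3:**
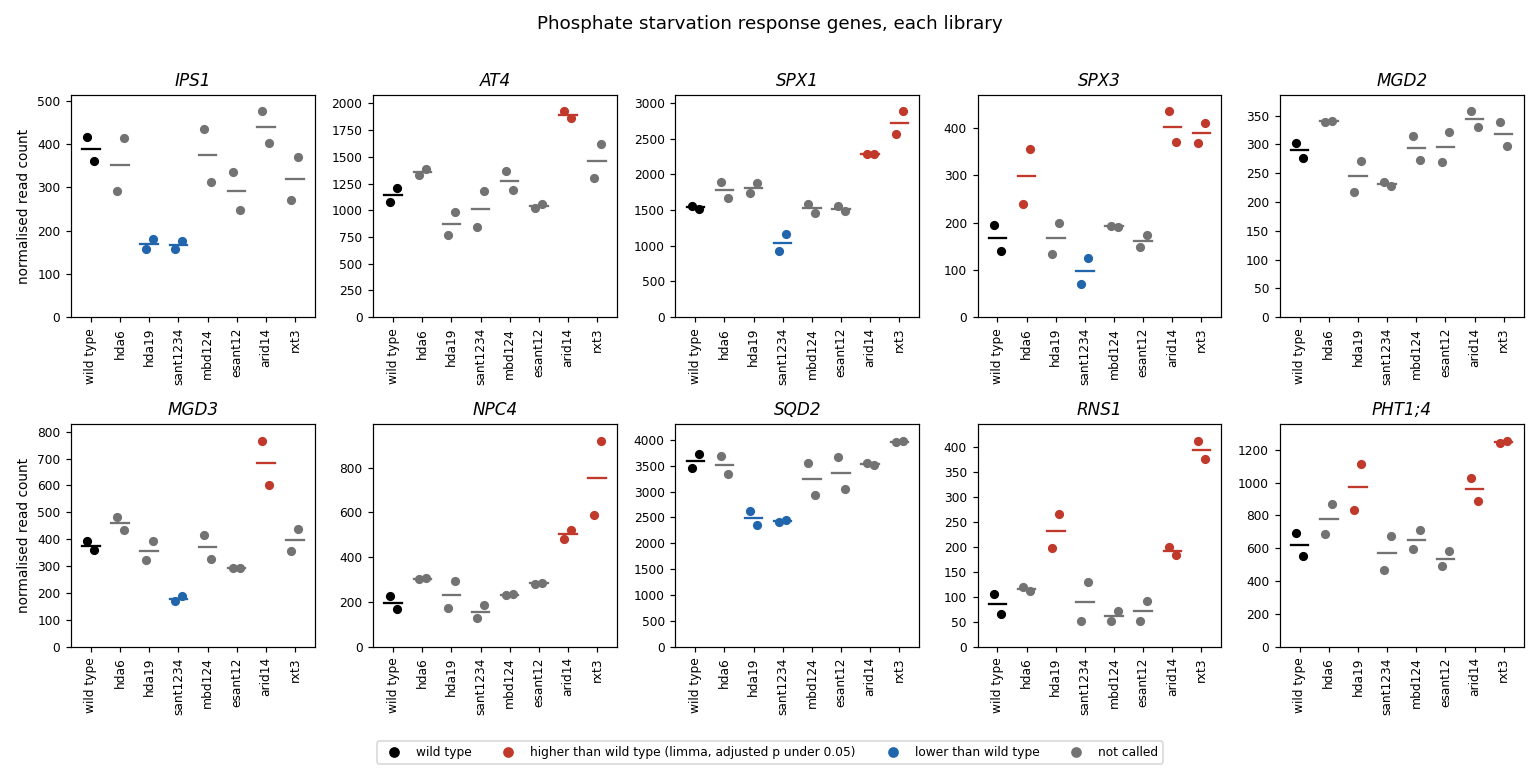
Normalised read count of each of the 10 genes in every library (points, replicate 1 left and replicate 2 right; y axes start at 0) with the mean of each genotype (line), coloured by the limma call against wild type. SPX1 in rxt3 sits at 2558 and 2881, above its wild-type values of 1562 and 1509, and IPS1 in hda19 and sant1234 sits between 156 and 180, below its wild-type values of 417 and 362.

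SPX1 and SPX3, SPX proteins that bind PHR1 and are themselves switched on by low phosphate, rose in arid14 and rxt3 and fell in sant1234. SPX1 (AT5G20150, chr5:6802282-6803655) was at 1562 and 1509 in wild type, 2287 and 2282 in arid14, 2558 and 2881 in rxt3 and 920 and 1158 in sant1234. These groups of libraries did not overlap each other. The log2 fold changes were 0.57 ± 0.09 in arid14 (limma adjusted p = 0.00034), 0.82 ± 0.09 in rxt3 (9.3e-06) and -0.57 ± 0.09 in sant1234 (0.00084). The libraries of hda6, at 1897 and 1674, and of hda19, at 1738 and 1884, all lay above wild type without a call, other than from edgeR in hda19 (adjusted p = 0.047), and those of mbd124, at 1581 and 1463, and esant12, at 1550 and 1490, overlapped wild type.

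SPX3 (AT2G45130, chr2:18606410-18607853) was at 196 and 141 in wild type, 435 and 371 in arid14 and 369 and 411 in rxt3. Its log2 fold change was 1.27 ± 0.26 in arid14 (limma adjusted p = 0.0018) and 1.22 ± 0.26 in rxt3 (limma adjusted p = 0.0014). It was called higher in hda6, at 240 and 356 (0.81 ± 0.26, limma adjusted p = 0.034), and lower in sant1234, at 69.7 and 125 (-0.83 ± 0.26, limma adjusted p = 0.036). These last calls rest on single libraries. The limma adjusted p in hda6 was 0.23 without wild-type replicate 2, 0.33 without hda6 replicate 2 and 0.063 with no filter on low values. In sant1234 it was 0.24 without wild-type replicate 1, 0.34 without sant1234 replicate 1, 0.07 with no filter and 0.17 in a limma fit of these 2 genotypes alone, and edgeR's adjusted p was 0.051. SPX3 was at 134 and 200 in hda19, 193 and 191 in mbd124 and 148 and 175 in esant12, which all overlapped wild type.

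Of the lipid enzymes, NPC4 and MGD3 rose in arid14, NPC4 rose in rxt3, MGD3 and SQD2 fell in sant1234 and SQD2 fell in hda19. MGD2 and MGD3 are the monogalactosyldiacylglycerol synthases that make galactolipid at the outer plastid envelope under low phosphate, NPC4 is a phospholipase C that removes the head group of phospholipids, and SQD2 completes the synthesis of sulfolipid. NPC4 (AT3G03530, chr3:842499-845096, minus strand) was at 224 and 166 in wild type, 481 and 521 in arid14 and 589 and 919 in rxt3, so that both mutants lay wholly above every other genotype. The log2 fold changes were 1.37 ± 0.24 in arid14 (limma adjusted p = 0.00067) and 1.93 ± 0.24 in rxt3 (2.3e-05). In hda6, at 301 and 307, and esant12, at 280 and 285, NPC4 lay above wild type without a call (limma adjusted p = 0.067 and 0.12), but hda6 was called in a fit of 2 genotypes (0.015) and with a replicate block (0.042). It was at 170 and 295 in hda19, 125 and 185 in sant1234 and 230.0 and 234 in mbd124.

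MGD3 (AT2G11810, chr2:4743162-4746813) was at 393 and 359 in wild type, 766 and 602 in arid14 and 169 and 186 in sant1234. Its highest libraries were thus those of arid14 and its lowest those of sant1234. The log2 fold changes were 0.85 ± 0.14 (limma adjusted p = 0.00045) and -1.07 ± 0.14 (limma adjusted p = 0.00022). In rxt3 it was at 356 and 438, on either side of wild type, with a difference of 0.07 and a 95% interval of -0.24 to 0.38. MGD3 was at 484 and 434 in hda6, 322 and 393 in hda19, 416 and 324 in mbd124 and 292 and 292 in esant12, without a call other than a lower one for esant12 in a fit of 2 genotypes (limma adjusted p = 0.046).

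SQD2 (AT5G01220, chr5:86543-90117, minus strand), with the highest wild-type level per kilobase of the 10 genes at 1619 normalised reads, fell in the same mutants as IPS1. It was at 3462 and 3731 in wild type, 2631 and 2364 in hda19 and 2417 and 2461 in sant1234, and these 4 mutant libraries were the lowest of the 16. The log2 fold changes were -0.53 ± 0.09 in hda19 (limma adjusted p = 0.00078) and -0.56 ± 0.09 in sant1234 (limma adjusted p = 0.00093). In arid14 SQD2 was at 3549 and 3514, and in rxt3 at 3954 and 3984, neither of them called. MGD2 (AT5G20410, chr5:6896463-6898783) was called in no mutant, other than lower in hda19 without hda19 replicate 2 (limma adjusted p = 0.045). Its genotype means ran from 231 in sant1234 to 344 in arid14, around 303 and 277 in the wild-type libraries, and 235 and 227 in sant1234 lay below and 357 and 330.5 in arid14 above them. Between mutants, MGD2 differed in 6 of 21 pairs, those that set hda19 or sant1234 against hda6, arid14 or rxt3. Of these calls 1, sant1234 against arid14, was kept, and 5 were lost with single libraries left out: that of hda6 against sant1234 with any of its 4 libraries left out (limma adjusted p = 0.061 to 0.095), that of hda6 against hda19 without either hda6 library (0.066 and 0.068) or hda19 replicate 1 (0.11), that of hda19 against arid14 without hda19 replicate 1 (0.089) or arid14 replicate 1 (0.055), that of hda19 against rxt3 without hda19 replicate 1 (0.25) or rxt3 replicate 1 (0.19), and that of sant1234 against rxt3 without rxt3 replicate 1 (0.083).

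RNS1 and PHT1;4 were the genes called higher in hda19, arid14 and rxt3 together. RNS1 (AT2G02990, chr2:873506-874886), a secreted ribonuclease, was at 104 and 64.9 in wild type and 412 and 376 in rxt3, the largest fold change among the 10 genes at 2.24 ± 0.36 on the log2 scale (limma adjusted p = 0.00017). It was at 198 and 265 in hda19 (1.47 ± 0.36, limma adjusted p = 0.0071) and 199 and 183 in arid14 (1.20 ± 0.36, limma adjusted p = 0.02). Wild type itself differed between its libraries by a replicate 2 to replicate 1 ratio of 0.622, and the spread was wider still in sant1234, at 50.7 and 130. The hda19 call was lost without wild-type replicate 2 (limma adjusted p = 0.076) or hda19 replicate 2 (0.065), and the arid14 call without wild-type replicate 2 (0.16) or either arid14 library (0.087 and 0.064). RNS1 was at 119 and 112 in hda6, 50.7 and 72.1 in mbd124 and 52.1 and 91.3 in esant12.

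PHT1;4 (AT2G38940, chr2:16257157-16260253), a high-affinity phosphate importer of the plasma membrane, was at 691 and 553 in wild type, 834 and 1112 in hda19, 1031 and 889.9 in arid14 and 1239.8 and 1255 in rxt3. Every library of these mutants lay above both wild-type libraries, and the rxt3 libraries above all others. The log2 fold changes were 0.64 ± 0.18 in hda19 (limma adjusted p = 0.016), 0.63 ± 0.18 in arid14 (limma adjusted p = 0.016) and 1.01 ± 0.18 in rxt3 (limma adjusted p = 0.00041). The hda19 call was lost without wild-type replicate 2 (limma adjusted p = 0.14), without hda19 replicate 2 (0.17) and in a fit of these 2 genotypes (0.079), and the arid14 call without wild-type replicate 2 (0.14) or arid14 replicate 1 (0.11). PHT1;4 was at 688 and 873 in hda6, 464 and 674 in sant1234, 592 and 710.0 in mbd124 and 489 and 583 in esant12.

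The mutants were also compared with each other, over 210 tests of a gene in a pair of mutants, of which 115 were called, beside 25.7% of such tests over all genes. The widest contrast lay between sant1234 and the mutants arid14 and rxt3. All 10 genes were lower in sant1234 than in arid14, beside 17% of all genes called in either direction and 8.02% called lower, and all 10 were lower in sant1234 than in rxt3, beside 37.9% and 18.3%. MGD3 was 178 in sant1234 and 684 in arid14 on average (log2 difference -1.93 ± 0.14, limma adjusted p = 2.8e-06). NPC4 was 155.5 in sant1234 and 754 in rxt3 on average (-2.26 ± 0.24, limma adjusted p = 1.3e-05). In each comparison 8 of the 10 calls were kept with every library left out and under every alternative other than a required log2 difference of at least 1. The others were RNS1 and PHT1;4 against arid14, with limma adjusted p of 0.34 and 0.13 without sant1234 replicate 1 and 0.12 and 0.073 without arid14 replicate 1, and AT4 and MGD2 against rxt3, at 0.15 for AT4 without sant1234 replicate 1 and 0.083 for MGD2 without rxt3 replicate 1. Between sant1234 and mbd124, where 2.13% of all genes were called and 1.23% called lower, IPS1, SPX1, MGD3 and SQD2 were lower in sant1234. Without sant1234 replicate 1 or mbd124 replicate 1 the limma adjusted p was 0.12 and 0.13 for IPS1, 0.098 and 0.091 for SPX1 and 0.21 and 0.28 for SQD2, and without sant1234 replicate 2 it was 0.069 for IPS1 and 0.18 for SQD2. Each of the 4 missed the threshold in a fit of these 2 genotypes alone, at 0.12 for IPS1, 0.15 for SPX1, 0.098 for MGD3 and 0.17 for SQD2.

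Although arid14 and rxt3 had the highest levels, they were not alike in every gene. Between them 4 genes were called, a share no larger than the 42.5% of all genes called there. The genes were thus called apart no more often than genes in general. AT4 was higher in arid14 (0.39 ± 0.14, limma adjusted p = 0.044), as was MGD3 (0.78 ± 0.14, limma adjusted p = 7e-04). SPX1 was lower in arid14 than in rxt3 (-0.25 ± 0.09, limma adjusted p = 0.045), as was RNS1 (-1.04 ± 0.36, limma adjusted p = 0.031). The AT4, SPX1 and RNS1 calls were lost with most single libraries left out, at limma adjusted p of up to 0.33 for AT4 without rxt3 replicate 1, 0.28 for SPX1 without rxt3 replicate 2 and 0.12 for RNS1 without arid14 replicate 2 or rxt3 replicate 1, while that of MGD3 was kept with each of the 4 libraries left out.

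The deacetylase mutants hda6 and hda19 differed in 5 genes, all higher in hda6, beside 23.9% of all genes called and 12.7% called higher. IPS1 averaged 352.5 in hda6 and 168 in hda19 (1.04 ± 0.20, limma adjusted p = 0.0022), and AT4 averaged 1359 and 876 (0.65 ± 0.14, limma adjusted p = 0.0054). SPX3, MGD2 and SQD2 were the others. The call of SQD2 was kept with each library left out, and those of IPS1 (limma adjusted p = 0.057), AT4 (0.066), MGD2 (0.068) and SPX3 (0.29) were lost without hda6 replicate 2. Without hda19 replicate 1 the calls of AT4 (0.064), MGD2 (0.11) and SPX3 (0.23) were lost as well, that of MGD2 without hda6 replicate 1 (0.066) and that of SPX3 with no filter on low values (0.057). The mutants hda19 and sant1234, which shared low IPS1 and SQD2, differed in 5 genes, all higher in hda19, beside 20.2% of all genes called and 9.93% called higher. These were SPX1, SPX3, MGD3, RNS1 and PHT1;4, with MGD3 at 357 against 178 (1 ± 0.14, limma adjusted p = 0.00037). The calls of SPX1 and MGD3 were kept with each library left out, and those of SPX3, RNS1 and PHT1;4 were lost without sant1234 replicate 1 (limma adjusted p = 0.39, 0.14 and 0.11), without hda19 replicate 2 (0.29, 0.085 and 0.094) and in a fit of these 2 genotypes (0.2, 0.12 and 0.099).

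Over the 8 genotype means the genes followed a broadly common order, with sant1234 lowest in 7 of the 10 and arid14 or rxt3 highest in all 10. Pearson's r between pairs of genes was positive in 44 of 45 pairs, with a median of 0.72 and a range of -0.07 to 0.96. These are a description of 8 points that share their libraries. Averaged over the standardised levels of the 10 genes, sant1234 stood lowest at -1.36, then hda19 at -0.47, esant12 at -0.40, wild type and mbd124 at -0.17, hda6 at 0.39, rxt3 at 1.09 and arid14 at 1.1. SPX3 lay closest to that average (r = 0.99) and RNS1 farthest from it (r = 0.62), RNS1 having its lowest mean in mbd124 and a high one in hda19. The ratio of the highest to the lowest genotype mean was smallest for MGD2, at 1.49, and for SQD2, at 1.63, and largest for NPC4, at 4.85, and RNS1, at 6.42. Of the 7 pairs of neighbours in each gene's order, 3 were called apart for SPX1, 2 for MGD3, 1 each for IPS1, AT4, SPX3, NPC4 and SQD2, and none for MGD2, RNS1 and PHT1;4. Of these 10 calls, those of SPX1 and MGD3 between sant1234 and esant12 were kept with each library left out and under the other settings save the fold limit, and 8 were lost in at least 1 of them. Neighbours were set by sorting the same means, and no share over all genes was computed for such pairs. The counts describe how far each order was resolved and are not read further.

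Libraries of 1 genotype also differed in most of the genes at once. In sant1234, 9 of 10 genes were higher in replicate 2 than in replicate 1, with a median ratio of 1.33, and in hda19 likewise 9 of 10, with a median ratio of 1.27. In wild type 2 of 10 were higher in replicate 2, with a median ratio of 0.891, and in arid14 1 of 10, at 0.923. Over all genes the median ratio of these replicates lay between 0.996 and 1. Leaving out each library in turn, the number of the 10 genes called lower in sant1234 was 4 or 5, the number called higher in arid14 was 5 to 7 and the number called higher in rxt3 was 5 or 6. For hda19 the number called higher was 0 without wild-type replicate 2 or without hda19 replicate 2, and the number called lower was 4 without hda19 replicate 2.

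P1BS, the motif bound by PHR1, was searched as GNATATNC, which reads the same on both strands so that every match counts once. Within 300 bases before the annotated start, 4 of the 10 genes held it (AT4, SPX3, MGD2 and NPC4), beside 6.44% of 32546 promoters of that length. Within 1000 bases it was found in 7 of 10, adding IPS1, SPX1 and SQD2, beside 20.1% of promoters. MGD3, RNS1 and PHT1;4 held no match in that window. Below are the promoters with a match close to the start, 300 bases each, and 120 bases upstream of IPS1 that hold its pair of sites, with the matches in capitals. They are shown so that the matches can be set beside the levels above.
SPX3 promoter: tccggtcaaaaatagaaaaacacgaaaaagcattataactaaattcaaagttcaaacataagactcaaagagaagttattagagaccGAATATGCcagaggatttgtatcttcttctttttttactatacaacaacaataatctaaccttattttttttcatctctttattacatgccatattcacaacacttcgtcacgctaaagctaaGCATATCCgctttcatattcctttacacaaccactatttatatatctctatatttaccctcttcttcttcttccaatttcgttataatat
NPC4 promoter: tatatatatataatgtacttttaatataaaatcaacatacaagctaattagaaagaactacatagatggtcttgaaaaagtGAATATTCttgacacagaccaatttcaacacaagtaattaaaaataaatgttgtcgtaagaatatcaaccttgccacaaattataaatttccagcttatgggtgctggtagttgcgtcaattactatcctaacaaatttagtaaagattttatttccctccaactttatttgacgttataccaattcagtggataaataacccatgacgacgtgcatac
AT4 promoter: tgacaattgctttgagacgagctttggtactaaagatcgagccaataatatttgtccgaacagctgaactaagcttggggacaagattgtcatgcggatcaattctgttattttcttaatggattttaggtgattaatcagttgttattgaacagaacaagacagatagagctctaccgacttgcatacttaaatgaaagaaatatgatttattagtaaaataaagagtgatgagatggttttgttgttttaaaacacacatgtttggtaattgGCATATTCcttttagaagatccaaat
MGD2 promoter: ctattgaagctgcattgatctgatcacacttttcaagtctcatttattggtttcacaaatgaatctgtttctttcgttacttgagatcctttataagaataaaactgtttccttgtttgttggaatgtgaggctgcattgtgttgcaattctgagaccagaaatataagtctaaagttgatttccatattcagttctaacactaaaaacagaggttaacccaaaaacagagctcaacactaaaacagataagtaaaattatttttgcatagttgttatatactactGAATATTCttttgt
IPS1 upstream window: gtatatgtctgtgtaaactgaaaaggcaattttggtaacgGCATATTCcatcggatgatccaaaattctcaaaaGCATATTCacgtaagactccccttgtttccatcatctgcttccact
They lie at chr2:18606110-18606409 (plus strand), chr3:845097-845396 (minus strand), chr5:894282-894581 (plus strand), chr5:6896163-6896462 (plus strand) and chr3:3050367-3050486 (plus strand) of TAIR10.1, all read toward the gene, and the IPS1 window runs from 622 to 503 bases before the start. SPX3 held matches at 213 and 90 bases and NPC4 at 219 bases before the start, and both rose in arid14 and rxt3. MGD2 held the same 8 letters as NPC4, GAATATTC, at 14 bases and was called in no mutant. AT4 held GCATATTC at 26 bases and IPS1 the same letters at 582 and at 548 bases, and AT4 rose in arid14 where IPS1 was not called. RNS1 and PHT1;4, with no match, rose in rxt3. A match describes letters and is not shown to be a bound site. Whether matches go with the levels was not tested, and a call for some genes and not for others does not show that they differ.

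**Figure D4:**
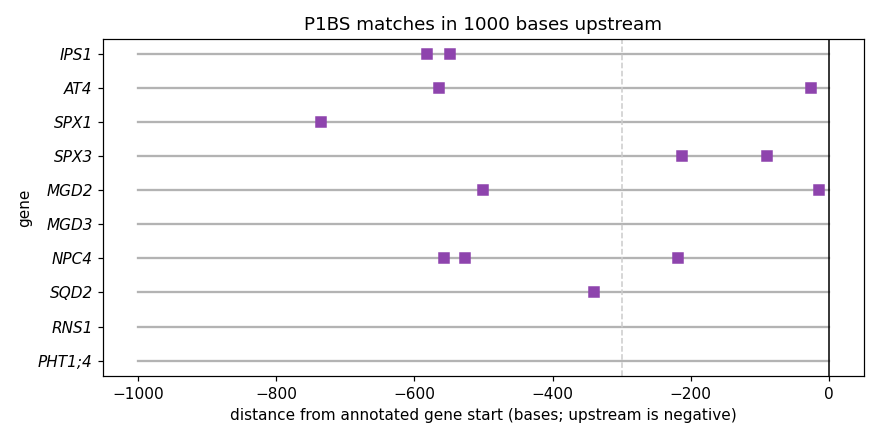
Positions of P1BS matches (squares) in the 1000 bases before the annotated start of each gene, with distance in bases on the x axis and a dashed line at 300 bases. AT4 and MGD2 hold a match within 26 bases of the start, and MGD3, RNS1 and PHT1;4 hold none.

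Beyond the 10 genes, 64 other genes of phosphate sensing, transport, lipid exchange and phosphate release were examined, of which 54 passed the filter. Of these, 21 were higher and 10 lower in arid14, 24 and 7 in rxt3, 9 and 5 in hda6, 12 and 9 in hda19, 6 and 14 in sant1234, 4 and 2 in mbd124 and 5 and 11 in esant12. In either direction that is 57.4% in arid14 and in rxt3, 25.9% in hda6, 38.9% in hda19, 37% in sant1234, 11.1% in mbd124 and 29.6% in esant12, beside 32.3%, 47.2%, 23.8%, 30.2%, 19.8%, 10% and 25.9% of all genes, so that the shares in hda6, mbd124 and esant12 lay near those of all genes. MIR399D, PAP23, PHT1;7 and PHT1;8 were under a value of 10 in both wild-type libraries and passed the filter through other libraries. Without them, of 50 genes, 19 were higher in arid14, 23 higher in rxt3 and 13 lower in sant1234, and the other counts did not change. The median log2 fold changes of the 54 ran from -0.14 in esant12 to 0.21 in rxt3. Among the 10 lower in arid14 was G3PP1 (-0.53 ± 0.08, limma adjusted p = 0.00023). Among the 7 lower in rxt3 was UGP3 (-0.45 ± 0.06, limma adjusted p = 5.6e-05). Among the 6 higher in sant1234 was NLA (0.58 ± 0.12, limma adjusted p = 0.0036). By role, of 11 phosphatases and nucleases tested, 8 were higher and 1 lower in rxt3, none higher and 5 lower in sant1234, and 4 higher and 1 lower in arid14, beside 22.3% of all genes higher in rxt3, 11.3% lower in sant1234 and 15.1% higher in arid14. Of 12 lipid enzymes, 5 were higher and 3 lower in arid14 and 1 higher and 3 lower in rxt3. Over all genes, 32.3% and 47.2% were called in either direction there. Of the 64, 21 held P1BS within 300 bases of the start, beside 6.44% of promoters.

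PECP1, a phosphatase acting on phosphoethanolamine and phosphocholine, was at 694 and 494 in wild type, 1281.5 and 1375 in arid14, 1135 and 1595 in rxt3, 817 and 1110.1 in hda6 and 319 and 413 in sant1234. It was called in the same mutants as SPX3, higher in arid14 (1.18 ± 0.20, limma adjusted p = 0.00051), rxt3 (1.20 ± 0.20, 0.00026) and hda6 (0.70 ± 0.20, 0.022) and lower in sant1234 (-0.69 ± 0.20, 0.028). The hda6 call was lost without wild-type replicate 2 (limma adjusted p = 0.2) or hda6 replicate 2 (0.27), and the sant1234 call without wild-type replicate 1 (0.23) or sant1234 replicate 1 (0.21), with no filter (0.059), in a fit of these 2 genotypes (0.1) and with DESeq2 (0.055). PAP5, a purple acid phosphatase, was low throughout, at 34.8 and 23.0 in wild type, 5.98 and 6.98 in sant1234 and 87.6 and 79.6 in arid14 (-1.97 ± 0.27, limma adjusted p = 0.00023, and 1.53 ± 0.27, 6e-04). PAP5 was also called lower in hda19 (-1.15 ± 0.27, limma adjusted p = 0.0051) and higher in mbd124 (0.90 ± 0.27, 0.048) and esant12 (0.92 ± 0.27, 0.021). In a fit of 2 genotypes these calls were lost (limma adjusted p = 0.063, 0.19 and 0.08), as they were without wild-type replicate 1 for hda19 (0.067) and without wild-type replicate 2 for mbd124 (0.3) and esant12 (0.19). PAP22 rose in rxt3 from 51.7 and 30.0 to 134 and 173 (1.92 ± 0.46, limma adjusted p = 0.0032). WRKY75, a transcription factor that acts on phosphate genes, rose in rxt3 from 94.5 and 71.9 to 263 and 273 (1.69 ± 0.31, limma adjusted p = 5e-04). Its call in arid14, at 128 and 202 (0.95 ± 0.31, limma adjusted p = 0.029), was lost without wild-type replicate 2 (0.17) or arid14 replicate 2 (0.24), in a fit of 2 genotypes (0.073) and with no filter (0.058). PHT1;5, a transporter that moves phosphate between organs, rose in rxt3 from 94.5 and 48.9 to 190.5 and 222 (1.58 ± 0.35, limma adjusted p = 0.0022). It was also called higher in hda6, at 157 and 196 (1.35 ± 0.35, limma adjusted p = 0.014), and in arid14, at 178 and 168 (1.33 ± 0.35, 0.01). The hda6 call was lost without wild-type replicate 2 (0.14) or either hda6 library (0.06 and 0.14), and the arid14 call without wild-type replicate 2 (0.13) or arid14 replicate 1 (0.053) and in a fit of 2 genotypes (0.051).

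Of the sensing genes, PHR1 was at 1213 and 1314 in wild type and 1147 and 1077 in rxt3, a log2 fold change of -0.18 ± 0.06 (limma adjusted p = 0.022) that was lost with edgeR (0.052), with DESeq2 (0.12), in a fit of these 2 genotypes (0.084), without wild-type replicate 2 (0.19) and without rxt3 replicate 2 (0.15). Its relative PHL1 was called in no mutant. VIH2, a kinase that makes the inositol pyrophosphates sensed by SPX proteins, was higher in all 7 mutants, by 0.30 ± 0.07 in mbd124 (limma adjusted p = 0.01) to 0.92 ± 0.07 in hda19 (7.6e-07), but the mbd124 call was lost without wild-type replicate 1 (0.11) or mbd124 replicate 2 (0.085), in a fit of these 2 genotypes (0.12) and with DESeq2 (0.056). ZAT6, a zinc finger factor of phosphate and stress responses, was higher in every mutant other than arid14, most in rxt3 (413 against 113 on average, 1.85 ± 0.19, limma adjusted p = 3.4e-06). Its call in hda19 was lost in a fit of 2 genotypes (limma adjusted p = 0.064), its call in mbd124 with any of the 4 libraries left out (0.055 to 0.19), in a fit of 2 genotypes (0.085) and with no filter (0.059), and its call in esant12 without wild-type replicate 1 (0.1) or esant12 replicate 1 (0.088). SPX4, another SPX protein that binds PHR1, rose in arid14 from 199.8 and 221 to 365 and 358 (0.78 ± 0.11, limma adjusted p = 0.00012), and in rxt3, where SPX1 and SPX3 were higher, it was at 213 and 246 without a call. SPX4 was also called higher in sant1234, mbd124 and esant12, and these calls were lost without wild-type replicate 1 (limma adjusted p = 0.096, 0.081 and 0.11) and without replicate 1 of the mutant (0.085, 0.065 and 0.098). SPX2 was at 572 and 541 in wild type, 641 and 691 in arid14 and 643 and 629 in rxt3 (0.26 ± 0.07, limma adjusted p = 0.0094, and 0.19 ± 0.07, 0.03), and both calls were lost with DESeq2 (0.069 and 0.13), in fits of 2 genotypes (0.059 and 0.064) and without wild-type replicate 2. SPX2 was also called lower in sant1234, at 490 and 478 (log2 fold change -0.2, limma adjusted p = 0.05 after rounding). The sant1234 call was lost under 7 of 9 alternatives and with any of the 4 libraries left out.

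PHO2, the transcript that miR399 cuts, was at 2006 and 1625 in wild type and was called lower in hda6, esant12, arid14 and rxt3, with log2 fold changes of -0.49, -0.37, -0.35 and -0.35 (limma adjusted p = 0.0043, 0.019, 0.021 and 0.014). All 4 calls were lost without wild-type replicate 1, the higher of the wild-type libraries, at limma adjusted p of 0.062 to 0.23. Of the miR399 genes, MIR399D alone passed the filter (MIR399A, MIR399B, MIR399C, MIR399E and MIR399F did not, nor did MIR827), and it did so through the libraries where it was high, so its calls are not read here. It had 8 and 3 reads in the wild-type libraries, 17 and 23 in those of arid14 and 0 and 2 in those of sant1234. No test is drawn from these counts. PHO1, which loads phosphate into the xylem, was at 1405 and 1451 in wild type, 1057 and 1143 in esant12 and 1796 and 1710.1 in arid14 (-0.38 ± 0.08, limma adjusted p = 0.0039, and 0.30 ± 0.08, 0.013). The arid14 call was lost without wild-type replicate 1 or arid14 replicate 1. PHO1 was also called lower in hda19, at 1047 and 1217 (log2 fold change -0.34, limma adjusted p = 0.0063). The hda19 call was lost in a fit of 2 genotypes (limma adjusted p = 0.063) and without hda19 replicate 1. PHT2;1, the phosphate transporter of the chloroplast, was called lower in all 7 mutants, most in arid14 (5932 against 9877 on average, -0.74 ± 0.06, limma adjusted p = 6.4e-07), but the mbd124 call was lost with any of the 4 libraries left out (0.092 to 0.14) and the hda6 call without either wild-type library (0.087 and 0.053) or hda6 replicate 2 (0.15).

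**Figure D5:**
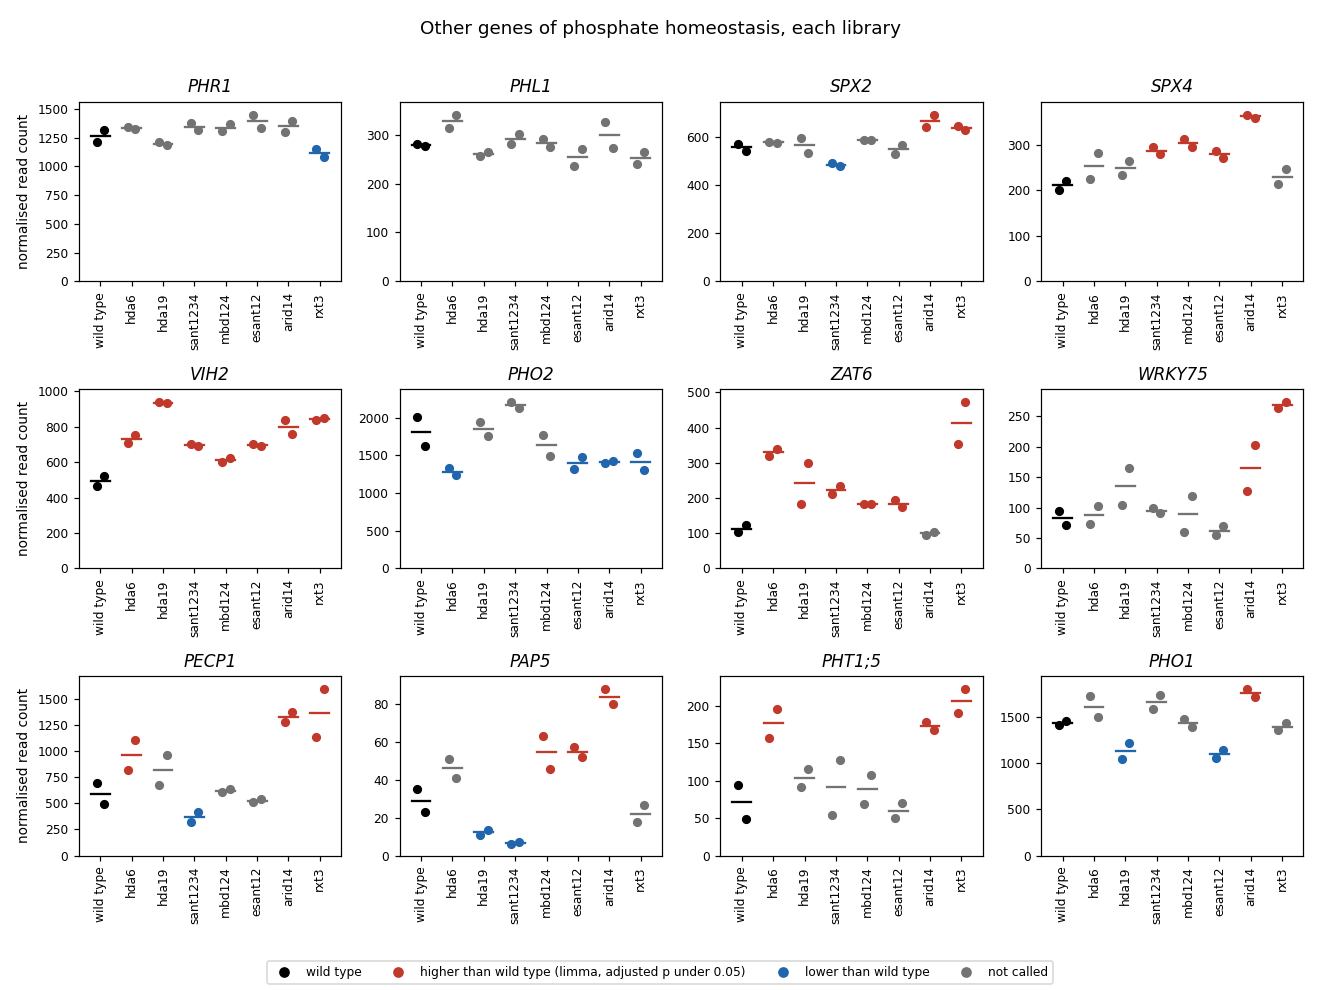
Normalised read count of 12 other genes of phosphate homeostasis in every library (points; y axes start at 0) with the mean of each genotype (line), coloured by the limma call against wild type. PECP1 sits at 319 and 413 in sant1234 and at 1281.5 and 1375 in arid14, while PHL1 is called in no mutant.

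The genes outside the 10 whose genotype means most resembled the average pattern were AT3G25240 (r = 0.977 over 8 genotypes), AUG2 (0.958), PHT1;8 (0.958), GDPD3 (0.955) and SPX2 (0.954). They were picked for this likeness, and their levels are given as a description. AT3G25240 averaged 30.2 in sant1234, 73.7 in wild type, 138 in rxt3 and 155 in arid14. GDPD3, a glycerophosphodiester phosphodiesterase, averaged 12.9, 22.0, 31.6 and 37.0 in the same order. PHT1;8, a phosphate transporter, averaged 3 in sant1234, 5 in wild type, 17.0 in rxt3 and 19.7 in arid14. It was under a value of 10 in both wild-type libraries and passed the filter through libraries where it was higher, so its likeness is not read further. AUG2, an augmin subunit, spanned 281 to 362 over the genotype means.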

How the data were processed

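Single-end 50 bp reads were aligned by the authors to TAIR10 using HISAT2 2.1.0, and featureCounts and edgeR followed, per the submitters' processing notes. The strand setting and annotation release are not given in the sources used here. The deposited signal is 1 normalised value per gene and library. Read counts were recovered from these values and rounded to whole numbers. Put through edgeR's library-size adjustment, they gave back 100% of the values, to a relative tolerance of 1e-06. Deposited totals were 18838164 to 20105682 per library. The scaling before deposit removes differences in total RNA per plant.

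Differences were tested with limma-trend (limma 3.58.1, R 4.3.3) applied to log2(value + 1) in 1 fit of all 16 libraries without a replicate block, with 8 residual and 6.06 prior degrees of freedom. Genes needed 10 or more in 2 or more libraries, with Benjamini-Hochberg adjustment over 20846 genes in each comparison. A fold change on this scale understates the change of low genes. Alternatives were another pseudocount, filters, scalings, fits of 2 genotypes, blocking on replicate number, a fold limit, each library left out, and edgeR 4.0.16 and DESeq2 1.42.0 on the recovered reads. The 10 genes, the lists and the tests were chosen with earlier results of these data known. The text names all 10 genes, PHR1, PHL1, PHO2, SPX2, SPX4, PHO1 and the microRNA genes, and other listed genes from up to 3 per direction and mutant with the largest called changes, and the 5 genes most like the average pattern. Whether a genotype's libraries came from separate plates of seedlings is not stated in the labels, so p-values measure the spread between libraries, which may be technical. The SANT and ESANT genes were not analysed here. No gene of the 10 overlaps another annotated gene or shares 50 bases with another transcript.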

Additional observations from a re-analysis of the deposited data

How the results depend on the processing

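Of the 22 calls of the 10 genes against wild type, 16 were kept under 9 alternatives (all but the fold limit below) and with each of 4 libraries left out, and the 6 others are given beside their results. No call reversed. Of 115 calls between mutants, 57 were kept. The naming rule above reached 24 listed genes with 83 calls, of which 36 were kept. Not all of these genes are described in the text, and they include MIR399D, whose calls are not read here. Deviations of libraries with the same replicate number correlated at -0.09 to 0.12 across the 28 genotype pairs, with 3 above 0.1. Whether libraries of the same number were handled together was not tested. With a replicate block, calls over all genes in sant1234 went from 1779 higher and 2355 lower to 1986 and 2520. The fit with a replicate block gave 2 genes higher in hda6, where the fit without it gave 1, lost none of the calls against wild type and gained 3; edgeR and DESeq2 gained 2 each. With no filter, 0 of the 10 genes were higher in hda6 and 2 of the other phosphate genes in mbd124. In fits of 2 genotypes, 3 of the 10 were higher in hda6, 1 higher in hda19 and 1 lower in esant12, and of the others 6 were higher and 5 lower in hda19, 7 lower in sant1234, 0 higher and 1 lower in mbd124, and 2 higher and 7 lower in esant12. With DESeq2, 8 of the others were lower in sant1234, 2 higher in mbd124, and 3 higher and 7 lower in esant12. With an absolute log2 fold change of at least 1 required, which removes calls by construction, 0 of the 10 were higher in hda6, 1 higher and 1 lower in hda19, 2 lower in sant1234 and 3 higher in arid14, and of the others 2 were higher and 0 lower in hda6, 1 and 2 in hda19, 0 and 3 in sant1234, 0 and 0 in mbd124, 0 and 1 in esant12, 5 and 0 in arid14 and 7 and 0 in rxt3. With 1 library left out, the 10 genes ran from 0 to 1 higher in hda6, 0 to 2 higher and 2 to 4 lower in hda19. The others ran from 4 to 8 higher and 0 to 7 lower in hda6, 6 to 13 higher in hda19, 8 to 11 lower in sant1234, 1 to 2 higher and 0 to 1 lower in mbd124, 2 to 4 higher and 6 to 9 lower in esant12, and 13 to 15 higher and 4 to 8 lower in arid14. A genotype left with 1 library is assumed to vary like the rest. Calls over all genes shifted as well. In fits of 2 genotypes, genes higher and lower went from 986 and 1098 to 61 and 55 in mbd124. In hda19 they went from 2925 and 3372 to 1367 and 1723. With DESeq2 they went from 2402 and 2990 to 1516 and 1899 in esant12. With no filter, genes higher in hda6 went from 2343 to 2455. The causes of these shifts were not tested. With 2 libraries per genotype, small differences are not detectable at this depth of replication.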
